A study of Mus musculus with 6 samples.

Results

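The CCAAT/enhancer-binding proteins (C/EBPs) Cebpa, Cebpb, Cebpd and Cebpg were taken by their symbols from the deposited gene table, which gave 4 of its 24421 genes. They were followed in engineered muscle made from C2C12 cells, an immortalised mouse myoblast line that fuses into myotubes. The cells had been cast in type I collagen around artificial tendons and differentiated before treatment. Tumour necrosis factor alpha (TNF-alpha) at 100 ng/mL for 72 h was given to 3 constructs, and vehicle (phosphate-buffered saline, PBS) to 3 constructs, all of 1 cell line and 1 genotype with no genetic change named in the labels. The labels number the constructs as biological replicates but do not say that they came from separate cultures, so every p-value rests on the variation among these constructs alone. Each polyadenylated RNA library held between 81713008 and 93533748 counts assigned to genes.

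C/EBPs are basic leucine zipper (bZIP) transcription factors that bind DNA as homodimers or as heterodimers with one another and with other bZIP proteins. C/EBPβ and C/EBPδ are known as factors of the acute phase and of inflammation, induced by cytokines such as interleukin 6 and interleukin 1. C/EBPα drives the differentiation of adipocytes, hepatocytes and granulocytes, and C/EBPγ lacks a strong activation domain and works chiefly as a dimer partner. In muscle, C/EBPβ is known as a factor of satellite cells that restrains myogenic differentiation, and both C/EBPβ and C/EBPδ have been studied in mouse muscle wasting. The Cebpa and Cebpb messenger RNAs are each translated from several start codons into long activating and short inhibitory proteins, which counts of RNA per gene do not separate.

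The transcripts of Cebpb, Cebpd and Cebpg rose with TNF-alpha, and that of Cebpa did not pass the test. Cebpb rose 2.49-fold, Cebpd 2.74-fold and Cebpg 1.38-fold. All 4 genes passed the filter on low counts. Calls were made with the quasi-likelihood test of edgeR at an adjusted p (Benjamini-Hochberg, over the 15792 genes tested) under 0.05, by which 3 of the 4 rose and 0 fell. Of all tested genes 27.6% rose and 27.9% fell, so that 55.5% were called in either direction. For 3 of the 4 the TNF-alpha libraries did not overlap the vehicle libraries, as held for 64.5% of all tested genes. A member called here was thus called in a comparison where most genes were, and the description that follows rests on sizes and levels. The constructs are bulk samples, in which a change in the share of cells of a type cannot be told apart from a change in RNA per cell.

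**Figure D1:**
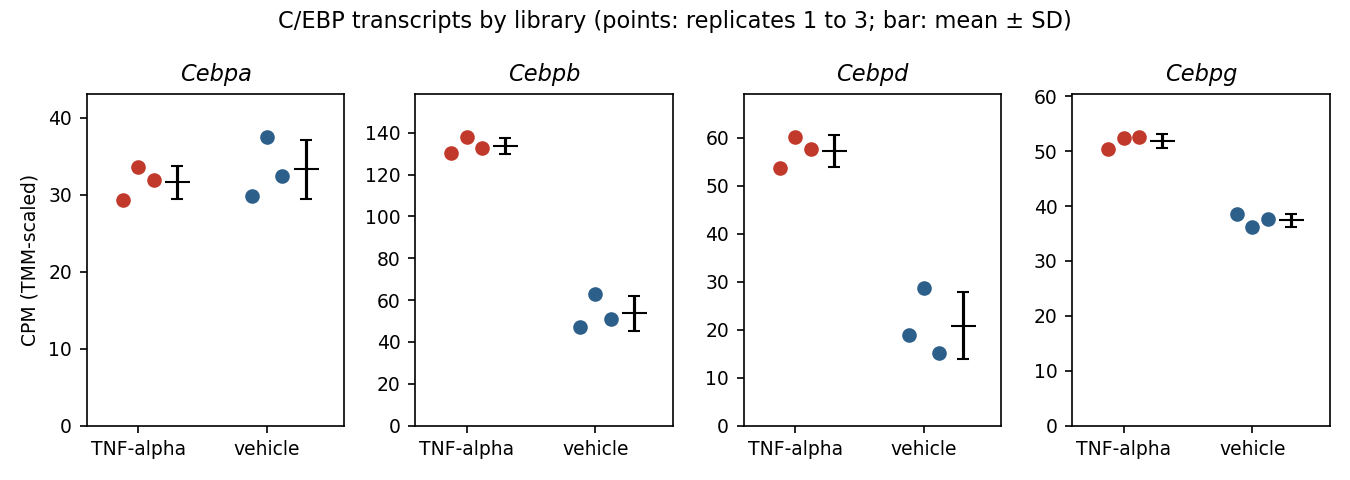
Level of each C/EBP transcript in CPM (counts scaled to a common library size with TMM, linear axes that start at 0 and differ between panels) in each of the 3 TNF-alpha and 3 vehicle libraries, with the mean and SD beside the points. The TNF-alpha points lie above all vehicle points for Cebpb (130.1 to 138 against 47.09 to 63.07), Cebpd and Cebpg, and the points overlap for Cebpa.

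Cebpb, which encodes C/EBPβ, had the highest level of the 4. Its level was 130.1, 138 and 132.9 CPM in TNF-alpha replicates 1 to 3 and 47.09, 63.07 and 51.05 CPM in vehicle replicates 1 to 3. The TNF-alpha libraries lay close together and far above the highest vehicle library, which was replicate 2. The means were 133.7 ± 4.0 CPM with TNF-alpha and 53.74 ± 8.32 CPM with vehicle (SD, n = 3 each). This is a 2.49-fold rise with a 95% interval of 2.11 to 2.93 (log2 fold change 1.31 ± 0.10 SE, edgeR adjusted p = 1.74e-05). Of all tested genes, 93.9% had a lower log2 fold change. The deposited counts behind these levels were 12154, 11831 and 11137 with TNF-alpha and 3921, 5907 and 4697 with vehicle.

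Cebpd, which encodes C/EBPδ, had the highest estimated fold change of the 4 with all libraries kept, and the most uneven vehicle libraries relative to its mean. Its level was 53.61, 60.21 and 57.75 CPM in TNF-alpha replicates 1 to 3 and 18.83, 28.62 and 15.09 CPM in vehicle replicates 1 to 3. The vehicle libraries were uneven, with replicate 2 high and replicate 3 low, but none reached the lowest TNF-alpha library. On average Cebpd had 57.19 ± 3.33 CPM with TNF-alpha and 20.85 ± 6.99 CPM with vehicle (SD, n = 3 each). It rose 2.74-fold with a 95% interval of 1.88 to 4 (log2 fold change 1.46 ± 0.23 SE, edgeR adjusted p = 0.0018), and 94.7% of tested genes had a lower log2 fold change. The interval of Cebpd covers that of Cebpb, and the difference between their fold changes was not tested. Without vehicle replicate 2 the log2 fold change of Cebpd was 1.75, and without vehicle replicate 3 it was 1.26, past the test both times. Without vehicle replicate 3 Cebpb, at 1.27, stood marginally above Cebpd.

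Cebpg, which encodes the dimer partner C/EBPγ, changed least among the genes that rose but was the most even between constructs. Its level was 50.3, 52.41 and 52.6 CPM with TNF-alpha and 38.54, 36.2 and 37.6 CPM with vehicle. Neither group spanned more than a few CPM, and the groups were well apart. The means were 51.77 ± 1.28 CPM with TNF-alpha and 37.45 ± 1.17 CPM with vehicle (SD, n = 3 each). That is a 1.38-fold rise with a 95% interval of 1.27 to 1.52 (log2 fold change 0.47 ± 0.06 SE, edgeR adjusted p = 0.000176). A lower log2 fold change was found in 79.7% of tested genes.

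Cebpa, which encodes C/EBPα, had nearly the same mean in both groups. Its level was 29.26, 33.56 and 31.93 CPM with TNF-alpha and 29.87, 37.51 and 32.44 CPM with vehicle. The groups overlapped, and the highest library was vehicle replicate 2. The means were 31.58 ± 2.17 CPM with TNF-alpha and 33.27 ± 3.89 CPM with vehicle (SD, n = 3 each). The log2 fold change was -0.08 ± 0.09 SE with a 95% interval of -0.29 to 0.14 (edgeR adjusted p = 0.524). That interval corresponds to a fold of 0.818 to 1.10 and ends below the intervals of Cebpb, Cebpd and Cebpg. Its sign is not settled, since without vehicle replicate 2 the log2 fold change was 0.02.

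**Figure D2:**
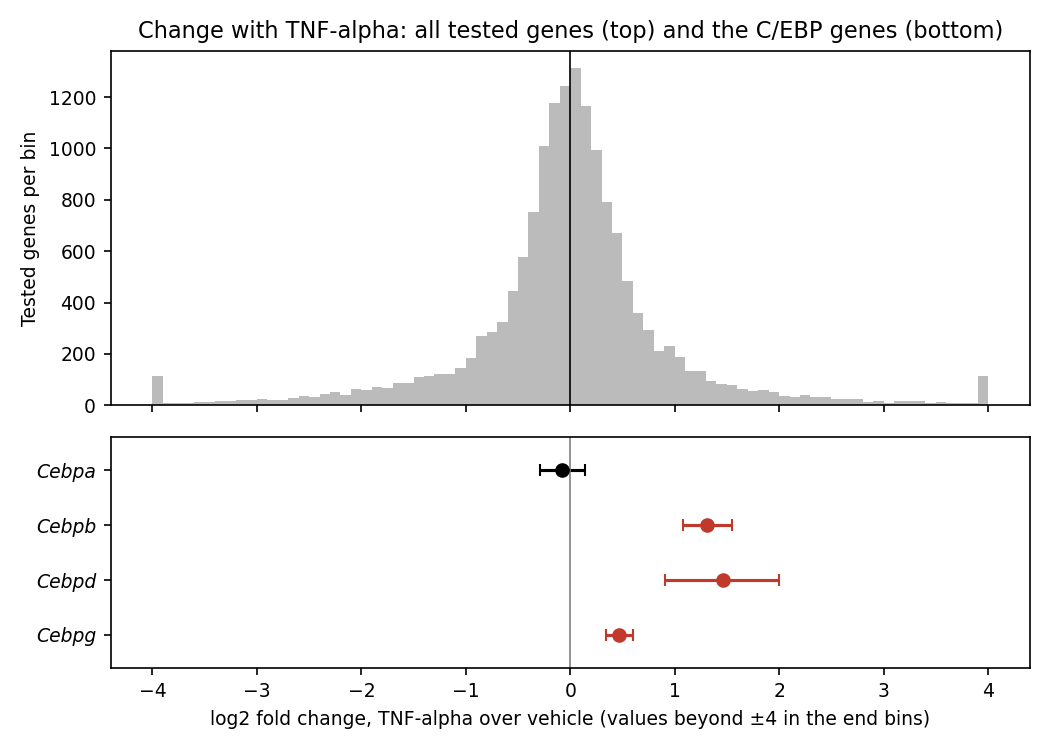
Top, the number of the 15792 tested genes in each bin of log2 fold change (TNF-alpha over vehicle, end bins holding values beyond the axis limits). Bottom, the log2 fold change of the 4 C/EBP genes with 95% intervals on the same axis, red where the adjusted p was under 0.05, showing Cebpb at 1.31 and Cebpd at 1.46 in the upper tail, Cebpg at 0.47 nearer the centre and Cebpa at -0.08 with an interval across 0.

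Levels were set beside each other between genes only after division by exon length (CPM per kilobase of annotated exon). Cebpb had 88.86 ± 2.66 CPM per kilobase with TNF-alpha and 35.73 ± 5.53 with vehicle. Cebpd had 15.27 ± 0.889 CPM per kilobase with TNF-alpha and 5.565 ± 1.87 with vehicle. Cebpb and Cebpd thus stood far apart in level. Cebpa had 11.98 ± 0.824 CPM per kilobase with TNF-alpha and 12.62 ± 1.47 with vehicle. Cebpg had 9.21 ± 0.227 CPM per kilobase with TNF-alpha and 6.662 ± 0.209 with vehicle (SD, n = 3 each). Cebpb thus led in both groups. By this exon length the order below it was Cebpd, Cebpa and Cebpg with TNF-alpha, with no overlap between neighbours. With vehicle it was Cebpa, Cebpg and Cebpd. The longest Cebpg transcript has 4709 bases against 5621 bases of annotated exon, so the places of Cebpg depend on the length used. In vehicle libraries Cebpg, at 6.441 to 6.856, lay within the range of Cebpd, at 4.027 to 7.641, so their difference there is not larger than the spread. By its mean length-scaled level over all libraries Cebpb stood above 95.1% of the 15186 tested genes with a known length, and Cebpg, the lowest of the 4 by this rank, above 61.6%.

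Shares of the summed C/EBP transcript level were higher with TNF-alpha for Cebpb and Cebpd and lower for Cebpa and Cebpg in these libraries, in a design too small for the test of a share to pass. The summed length-scaled level of the 4 genes was 120.8, 129.9 and 125.3 CPM per kilobase with TNF-alpha and 54.52, 70.24 and 56.97 with vehicle, a ratio of means of 2.07. Cebpb took 70.9% ± 0.561 of this sum with TNF-alpha and 58.9% ± 1.28 with vehicle (SD, n = 3 each). Cebpa took 9.55% ± 0.326 with TNF-alpha and 20.9% ± 0.68 with vehicle, a difference of -11.3 percentage points. The lower shares of Cebpa and Cebpg are shares of a larger sum, since the level of Cebpa did not pass the test and that of Cebpg rose. For Cebpd the share was 12.2% ± 0.289 with TNF-alpha and 9.06% ± 1.91 with vehicle, and for Cebpg 7.35% ± 0.153 with TNF-alpha and 11.2% ± 1.77 with vehicle. In each of the 4 genes the groups did not overlap, and the exact two-sided permutation test gave p = 0.1, the smallest that 3 against 3 libraries allow, with the same value after adjustment over the 4 shares. The shares sum to the whole, so they are not independent of one another. The sizes of the smaller shifts depend on the gene lengths: without division by length the Cebpd share differed by 6.71 points in place of 3.12, and the Cebpg share by -7.17 in place of -3.81, with the direction kept.

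**Figure D3:**
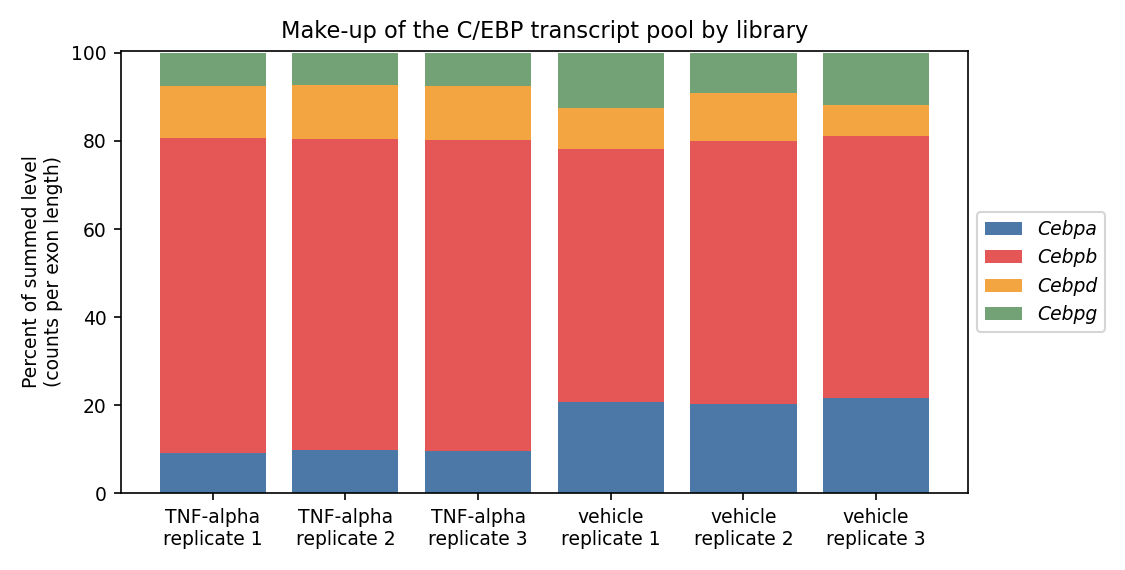
Percent of the summed length-scaled level of the 4 C/EBP transcripts taken by each gene, 1 stacked bar per library, TNF-alpha libraries on the left and vehicle libraries on the right. The Cebpa segment is 9.19% to 9.8% in TNF-alpha libraries and 20.3% to 21.6% in vehicle libraries, and the Cebpb segment is the widest in all 6.

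Ratios within a library carry no library scaling and differed between the groups in the same direction for Cebpb and Cebpd over Cebpa. Per length, Cebpb exceeded Cebpa 7.79, 7.2 and 7.3 times in TNF-alpha replicates 1 to 3 and 2.76, 2.95 and 2.76 times in vehicle replicates 1 to 3. Cebpd stood at 1.29, 1.26 and 1.27 times Cebpa with TNF-alpha and at 0.444, 0.537 and 0.327 times with vehicle. The inducible pair kept closer to each other, with Cebpb at 6.04, 5.71 and 5.73 times Cebpd with TNF-alpha and 6.23, 5.49 and 8.43 times with vehicle. The Cebpb to Cebpd ratio overlapped between groups.

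The genes also differed in how even they were between constructs. In TNF-alpha libraries the coefficient of variation was 5.83% for Cebpd, 2.99% for Cebpb, 6.88% for Cebpa and 2.47% for Cebpg. In vehicle libraries it was 33.5% for Cebpd, 15.5% for Cebpb, 11.7% for Cebpa and 3.13% for Cebpg. Cebpd was thus the least even in vehicle libraries and Cebpg the most even in both groups. On the log2 scale the SD of Cebpd was 0.08 with TNF-alpha, larger than that of 40.3% of tested genes, and 0.46 with vehicle, larger than that of 98.2%. Vehicle replicate 2 lay 0.50 above the vehicle mean for Cebpd, 0.24 for Cebpb and 0.18 for Cebpa on the log2 scale, against -0.05 for Cebpg. Among tested genes, 99.7% deviated less upward in that library than Cebpd, 97.1% less than Cebpb, 93.9% less than Cebpa and 30.8% less than Cebpg.

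In the genome the members are compact genes. Positions are from GENCODE M21 on GRCm38, in which all 4 are protein coding. Cebpa (ENSMUSG00000034957.10) lies on chromosome 7 from 35119293 to 35121928 on the plus strand, and Cebpg (ENSMUSG00000056216.9) on the same chromosome from 35046422 to 35056573 on the minus strand. They are divergent neighbours with 62719 bases between them, one not past the test and the other raised. Cebpb (ENSMUSG00000056501.3) lies on chromosome 2 from 167688915 to 167690418 and Cebpd (ENSMUSG00000071637.5) on chromosome 16 from 15887286 to 15891031, both on the plus strand. The longest annotated transcripts of Cebpa, Cebpb and Cebpd have a single exon, and the longest Cebpg transcript has 2 exons. GENCODE gives Cebpd 3746 bases of exon, whereas the RefSeq gene spans 2260 bases. With the RefSeq length, Cebpd stood at 23.7, 26.6 and 25.6 CPM per kilobase in TNF-alpha libraries and at 8.33, 12.7 and 6.68 in vehicle libraries, so that in vehicle libraries its values exceed those of Cebpg in replicates 1 and 2 and lie within their range in replicate 3, and replicate 2 lies within the range of Cebpa. In this comparison Cebpa and Cebpg kept their GENCODE exon lengths. The vehicle order of Cebpd and Cebpg therefore turns with the length used for Cebpd.

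The start regions of Cebpb and Cebpg, which rose, and of Cebpa, which did not pass the test, are shown so that the sequence at their starts can be read beside their levels. RefSeq sequences (GRCm38.p6, from 250 bases before to 50 bases after the annotated start) were matched for 3 of the 4 genes, all but Cebpd. Capitals mark TATAAA boxes, CCAAT boxes and TGACG, the core of the cyclic AMP response element, on either strand. The Cebpb window is chr2:167688665-167688964 on the plus strand, the Cebpg window chr7:35056517-35056816 on the minus strand and the Cebpa window chr7:35119043-35119342 on the plus strand.
Cebpb: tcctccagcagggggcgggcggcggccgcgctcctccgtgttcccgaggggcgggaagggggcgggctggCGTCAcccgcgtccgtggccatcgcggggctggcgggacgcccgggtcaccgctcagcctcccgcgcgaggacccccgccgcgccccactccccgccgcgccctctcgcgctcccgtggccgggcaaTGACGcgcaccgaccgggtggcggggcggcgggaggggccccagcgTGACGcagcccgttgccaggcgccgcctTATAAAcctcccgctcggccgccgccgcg
Cebpg: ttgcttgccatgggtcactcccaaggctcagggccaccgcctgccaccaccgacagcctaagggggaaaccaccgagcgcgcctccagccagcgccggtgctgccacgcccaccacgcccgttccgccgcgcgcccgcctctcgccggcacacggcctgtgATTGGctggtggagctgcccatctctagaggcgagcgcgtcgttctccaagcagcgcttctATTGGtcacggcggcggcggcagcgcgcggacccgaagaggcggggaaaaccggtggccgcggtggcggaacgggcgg
Cebpa: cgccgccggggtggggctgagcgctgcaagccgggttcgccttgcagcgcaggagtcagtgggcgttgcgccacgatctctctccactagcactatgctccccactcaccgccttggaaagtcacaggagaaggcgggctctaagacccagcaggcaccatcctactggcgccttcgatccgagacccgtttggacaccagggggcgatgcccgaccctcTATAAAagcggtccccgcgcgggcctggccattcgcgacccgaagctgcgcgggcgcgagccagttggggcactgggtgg

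Counting the start base as position 1 and the base before it as position -1, the Cebpb window holds TATAAA at 22 and TGACG or its complement CGTCA at -180, -53 and -7. The Cebpg window holds no TATAAA but has ATTGG, the complement of CCAAT, at -89 and -28. The Cebpa window holds TATAAA at -30 and neither of the other marked motifs. GC boxes (GGGCGG, either strand, not capitalised) number 5 in Cebpb, of which a pair overlaps, and 1 in Cebpg. Bases G and C make up 80.7% of the Cebpb window, 71.7% of the Cebpg window and 67.3% of the Cebpa window, against a median of 52.7% over all RefSeq windows. Over 32841 such windows of 27018 genes, TATAAA was found in 13.6%, CCAAT in 37.4%, TGACG in 20.8% and GGGCGG in 35.7%. None of the 3 windows held TGACGTCA (1.79% of all windows), TTNNGNAA as a loose C/EBP site (40.7%), GGANTTNCC as a loose NF-kB site (3.94%) or TTCNNNGAA as a STAT site (8.3%), where N is any base and both strands were read. These are matches of letters in short windows and say nothing of whether a factor binds.

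Cebpb and Cebpd each overlap a coding gene on the opposite strand, and both of these partners rose too. The libraries came from a stranded kit, per the labels, but whether strand was used in counting is not given in the sources used here, so reads of a gene and of its antisense partner cannot be told apart. Spidr, a scaffold protein of homologous recombination, overlaps Cebpd from 15889224 to 15891031 on chromosome 16. In GENCODE this is 48.3% of the Cebpd exon length and includes 562 bases where exon lies on exon. The overlap with the shorter RefSeq gene of 2260 bases was not computed, so this share depends on the annotation. Spidr had 59.52, 52.66 and 56.89 CPM with TNF-alpha and 20.13, 16.73 and 23.19 CPM with vehicle (log2 fold change 1.49 ± 0.12 SE, edgeR adjusted p = 1.63e-05). Among vehicle libraries Spidr was lowest in replicate 2, where Cebpd was highest. The deposited values of both genes ended in 0.5 in the same 4 libraries and were whole in the other 2. Tmem189, the enzyme that makes plasmalogens, overlaps Cebpb from 167688915 to 167689822 on chromosome 2. This is 60.4% of the Cebpb exon length and includes 312 bases where exon lies on exon. It had 164.3, 170.2 and 174 CPM with TNF-alpha and 96.34, 112 and 124.1 CPM with vehicle (log2 fold change 0.61 ± 0.09 SE, edgeR adjusted p = 0.000477). The deposited Cebpb and Cebpa values were whole numbers in all 6 libraries. How many reads in the overlaps belong to which strand was not tested. An annotated antisense transcript, Gm45091, covers 313 bases of Cebpa and was not analysed here.

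**Figure D4:**
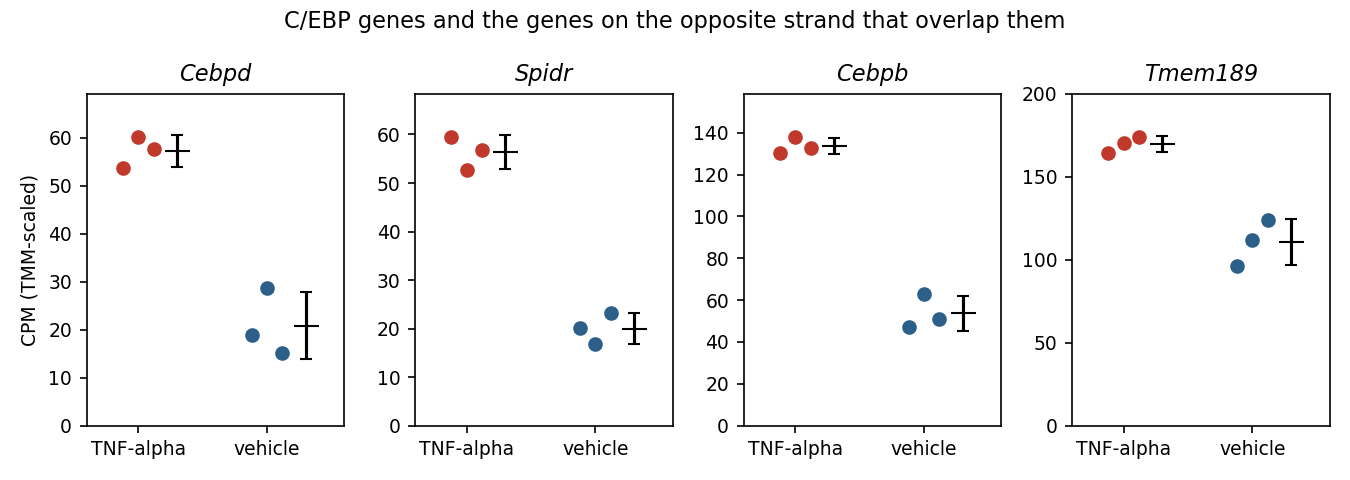
Levels in CPM (TMM-scaled, linear axes from 0 that differ between panels) of Cebpd and Cebpb and of the opposite-strand genes that overlap them, Spidr and Tmem189, in the 3 TNF-alpha and 3 vehicle libraries with mean and SD. In every panel the TNF-alpha points lie above the vehicle points, and vehicle replicate 2, the middle vehicle point, is the highest for Cebpd (28.62) and the lowest for Spidr (16.73).

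Genes with the pattern most like each member over the 6 libraries were ranked by the root mean square difference in centred log2 CPM among 10570 candidates, which share libraries and depth. Nearest to Cebpb were Slc39a14, a zinc and iron transporter of the acute phase (difference 0.052, log2 fold change 1.35), Bdkrb2, the bradykinin receptor (0.063, log2 fold change 1.29), and Rnf19b (0.066, log2 fold change 1.36). Nearest to Cebpd were Igfbp3, which binds insulin-like growth factors (difference 0.123, log2 fold change 1.46), Adamtsl4 (0.139) and Stx11 (0.141). Nearest to Cebpg were Ripk1, a kinase of the TNF receptor complex (difference 0.019, log2 fold change 0.50), Sra1 (0.020) and Glb1, the lysosomal beta-galactosidase (0.023). Nearest to Cebpa were Nynrin (difference 0.043), Fam160a1 (0.046) and the kinase Wnk1 (0.046). Among the members themselves Cebpb and Cebpd were the closest pair, at 0.198, and Cebpa and Cebpd the farthest apart, at 0.802. The nearest neighbour of Cebpd was thus more distant than that of any other member.

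Of the other genes of the family, Ddit3, which encodes CHOP, a stress-induced partner that blocks C/EBP binding to its usual sites, rose to 64.5 ± 5.13 CPM with TNF-alpha, against 40.0 ± 3.2 CPM with vehicle (SD, n = 3 each). Its log2 fold change was 0.69 ± 0.08 SE (edgeR adjusted p = 0.000154). Cebpz, which shares the name but has no bZIP domain, had 64.2 ± 2.87 CPM with TNF-alpha and 59.5 ± 2.93 CPM with vehicle (log2 fold change 0.11 ± 0.06 SE, edgeR adjusted p = 0.172). Cebpe, the granulocyte member, had 0 to 2 counts per library in either group and was not tested. Against the background of 55.5% called, 1 of these 2 tested genes was called.

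Many genes of other bZIP factors that can pair with C/EBPs or bind beside them were called, more of them upward than downward, in a table where 55.5% of all tested genes were called. Of 19 tested, 10 rose, 3 fell and 6 did not pass the test, with a median log2 fold change of 0.22 against 0.005 over all tested genes. Fosl1, a Fos-family subunit of AP-1, rose to 143 ± 0.718 CPM with TNF-alpha, against 20.9 ± 0.867 CPM with vehicle (log2 fold change 2.78 ± 0.06 SE, edgeR adjusted p = 3.77e-08). Crem, a cyclic AMP response element modulator, had a log2 fold change of 1.59 ± 0.10 SE (edgeR adjusted p = 3.35e-06). Maf fell, with 2.89 ± 0.0607 CPM with TNF-alpha and 15.0 ± 2.05 CPM with vehicle (log2 fold change -2.37 ± 0.13 SE, edgeR adjusted p = 1.73e-06). Atf4, the stress factor that pairs with C/EBPγ and C/EBPβ and was named after its value was seen, rose by 0.74 ± 0.09 SE on the log2 scale (edgeR adjusted p = 0.000137).

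Transcripts of signalling proteins and factors known to act on C/EBP genes or proteins rose or did not pass the test. Of 19 tested, 14 rose, 0 fell and 5 did not pass, with a median log2 fold change of 0.39, where 27.6% of all tested genes rose and 55.5% were called. Jak2, a kinase of the interleukin 6 receptor pathway, had 213 ± 12.6 CPM with TNF-alpha and 56.3 ± 3.45 CPM with vehicle (log2 fold change 1.92 ± 0.07 SE, edgeR adjusted p = 3.37e-07). Nfkb1, a subunit of NF-kB, rose by 1.25 ± 0.07 SE on the log2 scale (edgeR adjusted p = 3.3e-06). The transcripts of Klf4 and of Egr2, known in mouse adipogenesis as inducers of Cebpb, had edgeR adjusted p of 0.802 and 0.295, and both were named after their values were seen.

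Genes that act on C/EBP proteins after transcription moved in both directions. Of 11 tested, 4 rose, 2 fell and 5 did not pass, with a median log2 fold change of 0.10, and their called share of 54.5% is close to the background. Trib1, a pseudokinase that directs C/EBPα to degradation, rose to 62.2 ± 6.45 CPM with TNF-alpha, against 22.8 ± 2.34 CPM with vehicle (log2 fold change 1.45 ± 0.10 SE, edgeR adjusted p = 6.84e-06). Eif4ebp1, a repressor of cap-dependent translation, rose by 0.92 ± 0.07 SE on the log2 scale (edgeR adjusted p = 1.09e-05). Fbxw7, a ubiquitin ligase subunit with C/EBP proteins among its substrates, fell to 39.8 ± 1.28 CPM with TNF-alpha, against 70.3 ± 3.4 CPM with vehicle (log2 fold change -0.82 ± 0.06 SE, edgeR adjusted p = 1.1e-05).

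Inflammatory and acute phase genes known as C/EBP targets in other cells rose in most cases. Of 23 tested, 18 rose, 2 fell and 3 did not pass, with a median log2 fold change of 3.97, which is 87% called beside 55.5% of all tested genes. Ptgs2, the inducible cyclooxygenase, rose by 5.66 ± 0.13 SE on the log2 scale (edgeR adjusted p = 3.77e-08). Csf3, the granulocyte growth factor, had 711 to 797 counts with TNF-alpha and 1 to 8 counts with vehicle, so its log2 fold change of 7.41 ± 0.31 SE rests on few vehicle reads. Orm2, an orosomucoid of the acute phase, fell to 14 to 16.5 counts with TNF-alpha, against 59 to 130 counts with vehicle (log2 fold change -2.73 ± 0.37 SE, edgeR adjusted p = 0.000296). The mouse targets Saa2 and Ptx3, named after their values were seen, had log2 fold changes of -0.32 and 0.09 and did not pass the test. Whether C/EBP factors or other factors lie behind the changes in this list was not tested.

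The integrated stress genes on which C/EBPγ and Atf4 are known to act showed 9 rises and 2 falls among 16 tested, with 5 not past the test and a median log2 fold change of 0.46. That is 68.8% called, beside 55.5% of all tested genes. Trib3, named for this overlap alone, is also in the list of genes that act on C/EBP proteins, so its rise counts in both. Gclm, a subunit of the enzyme that starts glutathione synthesis, rose to 85.6 ± 12.9 CPM with TNF-alpha, against 23.7 ± 2.41 CPM with vehicle (log2 fold change 1.85 ± 0.12 SE, edgeR adjusted p = 1.09e-05). Ddit4, an inhibitor of mTOR signalling, rose by 1.17 ± 0.10 SE on the log2 scale (edgeR adjusted p = 1.74e-05). Psat1, of serine synthesis, fell by 0.66 ± 0.14 SE (edgeR adjusted p = 0.00601). The other fall was Shmt2, with a log2 fold change of -0.34 ± 0.10 SE (edgeR adjusted p = 0.02). Asns (log2 fold change 0.16), Chac1 (-0.21), Phgdh (-0.23) and Mthfd2 (-0.21) did not pass the test. Shmt2 and these genes were named after their values were seen.

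Of muscle wasting genes, 1 of 7 tested rose, 1 fell and 5 did not pass, with a median log2 fold change of 0.11. Foxo3 rose to 54.4 ± 8.92 CPM with TNF-alpha, against 29.0 ± 3.29 CPM with vehicle (log2 fold change 0.91 ± 0.13 SE, edgeR adjusted p = 0.000752). Foxo1 fell to 63.2 ± 2.05 CPM with TNF-alpha, against 88.9 ± 13.1 CPM with vehicle (log2 fold change -0.49 ± 0.10 SE, edgeR adjusted p = 0.00357). The ubiquitin ligases Fbxo32, known in mouse muscle as a target of C/EBPβ, and Trim63, both named after their values were seen, had log2 fold changes of 0.36 ± 0.17 SE and -0.42 ± 0.16 SE (edgeR adjusted p = 0.104 and 0.0577). Without TNF-alpha replicate 1, 6 of these genes were called, and the count was 4 or 5 under several alternatives with every library kept, so it depends on the processing as well as on that library. Over all tested genes 55.5% were called.

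All 8 tested genes of the myoblast list were called, 2 upward and 6 downward, with a median log2 fold change of -1.19, beside 55.5% called of all tested genes. Heyl, a Notch target of satellite cells, had 14 to 42 counts with TNF-alpha and 768 to 1089 counts with vehicle (log2 fold change -4.99 ± 0.33 SE, edgeR adjusted p = 1.12e-05). Myh3, the embryonic myosin heavy chain, fell by 2.45 ± 0.16 SE on the log2 scale (edgeR adjusted p = 1.12e-05). Myog, the differentiation factor myogenin, rose to 878 ± 24.9 CPM with TNF-alpha, against 669 ± 57.3 CPM with vehicle (log2 fold change 0.39 ± 0.08 SE, edgeR adjusted p = 0.00281). Myh3 and Myog also serve as myotube markers below, so the list is not one of myoblast genes alone. The other riser was Myf5, named after its value was seen (log2 fold change 0.49 ± 0.17 SE, edgeR adjusted p = 0.0413). Its groups overlapped.

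The adipocyte and myeloid genes that C/EBPα is known to control were mostly scarce. Of 14 adipocyte genes 8 were tested, of which 3 rose, 4 fell and 1 did not pass, with a median log2 fold change of -0.36. Cd36, a fatty acid transporter also used by muscle, fell by 1.56 ± 0.11 SE on the log2 scale (edgeR adjusted p = 8.7e-06), Lpl, lipoprotein lipase, fell by 2.00 ± 0.19 SE (edgeR adjusted p = 9.96e-05), and Insr, the insulin receptor, rose by 0.37 ± 0.06 SE (edgeR adjusted p = 0.000792). Of 12 myeloid genes 7 were tested, of which 4 rose, 1 fell and 2 did not pass, with a median log2 fold change of 1.26. The called shares were 87.5% for the adipocyte and 71.4% for the myeloid list, beside 55.5% of all tested genes. Cd14, the lipopolysaccharide co-receptor, rose to 76.8 ± 8.0 CPM with TNF-alpha, against 9.24 ± 0.403 CPM with vehicle (log2 fold change 3.06 ± 0.09 SE, edgeR adjusted p = 9.67e-08). Camp, a cathelicidin, rose by 2.60 ± 0.19 SE on the log2 scale (edgeR adjusted p = 1.04e-05), and Gfi1, a granulocyte repressor, fell to 6 to 7 counts with TNF-alpha, against 13 to 28 counts with vehicle (edgeR adjusted p = 0.00968). None of the 6 liver metabolic genes passed the filter.

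**Figure D5:**
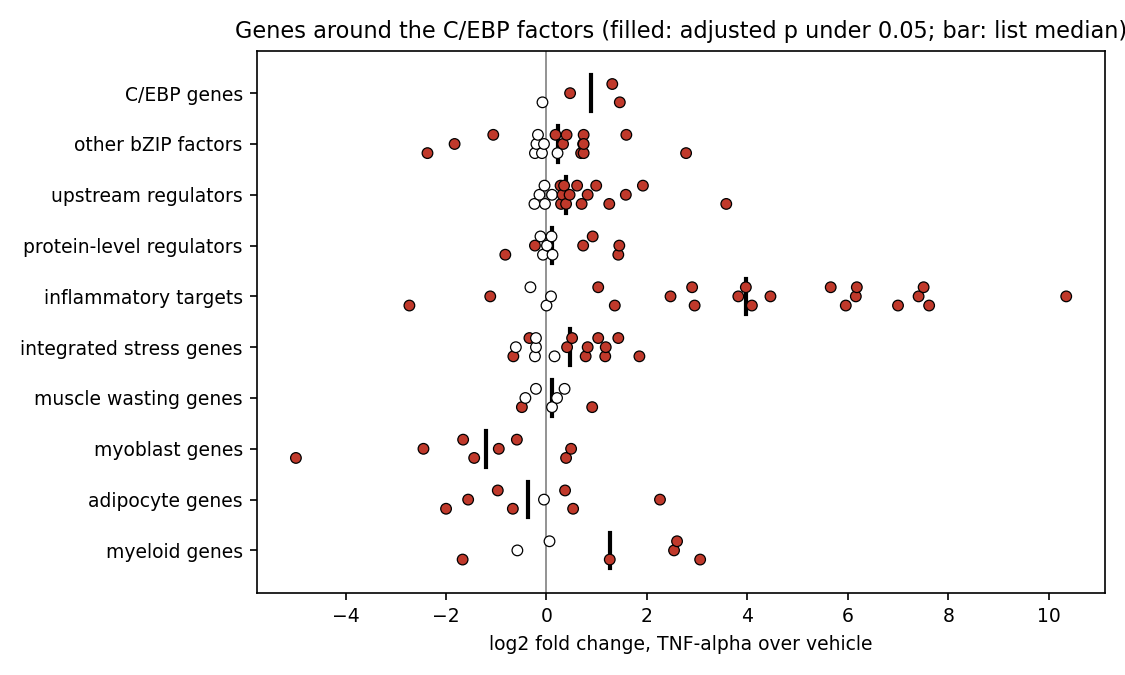
Log2 fold change (TNF-alpha over vehicle) of each tested gene in the C/EBP set and in 9 lists of related genes, 1 point per gene, filled red where the adjusted p was under 0.05 and open otherwise, with a bar at the list median and points offset vertically for legibility. The inflammatory targets lie farthest to the right with a median of 3.97. The list labelled myoblast genes, which also holds the myotube markers Myh3 and Myog, lies to the left with a median of -1.19.

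Markers of other cells were read beside these results because C/EBPs are prominent in myeloid cells, adipocytes and hepatocytes. The 7 myotube markers, all tested, summed to 7496 to 8666 CPM with TNF-alpha and 11080 to 12810 CPM with vehicle, with 1 risen and 5 fallen. The 7 macrophage markers summed to 21.23 to 22.96 CPM with TNF-alpha and 5.467 to 5.764 CPM with vehicle, with 3 of 5 tested risen. Most of that sum was Cd68, a lysosomal protein, at 19.8 ± 0.738 CPM with TNF-alpha and 4.81 ± 0.04 CPM with vehicle. The defining leukocyte gene Ptprc had 0 counts in each TNF-alpha library and 2 to 4 counts in each vehicle library, and Adgre1 had 0 to 2 counts with TNF-alpha and 0 with vehicle. Csf1r, the receptor of macrophage growth factor, rose to 1.44 ± 0.252 CPM with TNF-alpha, against 0.246 ± 0.0283 CPM with vehicle (edgeR adjusted p = 5.33e-05), and Lyz2 to 0.313 ± 0.0967 CPM with TNF-alpha, against 0.13 ± 0.0284 CPM with vehicle (edgeR adjusted p = 0.0235). The macrophage list was thus mixed, with Ptprc and Adgre1 near 0 and Cd68, Csf1r and Lyz2 higher with TNF-alpha. Neutrophil markers summed to 2.418 to 4.291 CPM with TNF-alpha and 0.3483 to 0.4565 CPM with vehicle, with 1 of 2 tested risen (S100a8) and S100a9 at 0 in every library. Adipocyte markers summed to 0.4066 to 0.6087 CPM with TNF-alpha and 0.1304 to 0.3203 CPM with vehicle, with the 1 tested gene (Fabp4) risen and Lep at 0 throughout. Both sums were higher with TNF-alpha and very small beside those of myotube genes. Endothelial markers summed to 4.345 to 4.989 CPM with TNF-alpha and 4.409 to 6.141 CPM with vehicle, with 1 of 4 tested risen and 1 fallen. Hepatocyte markers summed to 0.3581 to 2.437 CPM with TNF-alpha and 0.331 to 0.4683 CPM with vehicle, with 0 of 1 tested called. The part that these differences in marker sums have in the rises of Cebpb, Cebpd and Cebpg and of the gene lists was not tested.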

How the data were processed

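Polyadenylated RNA from 6 C2C12 constructs was sequenced in paired-end mode after a stranded library kit, per the labels. The authors deposited 1 table of estimated counts per gene: per library, 20.1% to 21% of them are not whole, although the submitters' text calls them integers. DESeq2, Subread 2.0.0 with featureCounts, Bowtie2 2.3.5.1 and TopHat2 2.1.1 are named, with mm10 and GRCm38, per the submitters' processing notes. The sources used here do not give the counting options. Intervals cover the spread between libraries.

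Counts were rounded to whole numbers, filtered with filterByExpr and scaled with TMM in edgeR 4.0.16 (R 4.3.3). The quasi-likelihood test (robust, group as the sole term) compared TNF-alpha with vehicle in the 15792 genes that passed, 3813 having been at 0 everywhere. Calls used a Benjamini-Hochberg adjusted p under 0.05 over all of them. CPM are TMM-scaled. Replicates of a group differed beyond sampling noise (chi-square per degree of freedom 23.1 to 70.6). Patterns were compared on log2(CPM + 0.5), and composition shares with exact two-sided permutation tests.

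The members, the 11 gene lists, the 6 marker lists and the tests were chosen with earlier results of these data known. Named from each list were the 2 called genes with the smallest p in its main direction and 1 in the other, a list of 3 being named whole. For each member the 3 most alike genes with a mean of at least 5 CPM and no predicted-gene symbol were named. Others are marked as chosen after their values were seen. Mymk was read as Tmem8c and Cop1 as Rfwd2, and Ly6g was not analysed here. The procedure was run on simulated counts with 200 changed genes and a common dispersion, whereas 8769 genes were called here. That run does not show how the test performs where most genes are called. Alternatives were other scalings, filters, DESeq2 1.42.0, limma-voom (limma 3.58.1), no robust estimation, a replicate block, each library left out, and for shares other gene lengths, of which the RefSeq length was added after seeing the data.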

Additional observations from a re-analysis of the deposited data

How the results depend on the processing

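Cebpb, Cebpd and Cebpg rose past the test under all 15 alternatives, with log2 fold changes of 1.23 to 1.44, 1.26 to 1.75 and 0.43 to 0.49 and highest adjusted p of 0.000202, 0.0117 and 0.00186 (edgeR, DESeq2 or limma-voom). Cebpa passed in none, with a range of -0.15 to 0.02, the 0.02 being without vehicle replicate 2 (edgeR adjusted p = 0.883). The genes called numbered 6168 to 8916. No clear shared effect of the replicate number was seen: correlations of same-numbered deviations were 0.08, -0.09 and -0.01 over 10968 genes. Only number 1 correlated best with itself. These values cannot tell whether same-numbered constructs were handled together. With the replicate block the log2 fold changes were -0.07 for Cebpa, 1.32 for Cebpb, 1.50 for Cebpd and 0.47 for Cebpg, with 8486 genes called and an exact sign-flip p of 0.25, the smallest possible, for each share. Without 1 library each, the share differences ran from -11.6 to -11 points for Cebpa, 11.3 to 12.4 for Cebpb, 2.13 to 4.03 for Cebpd and -4.81 to -3.1 for Cebpg. The muscle wasting list moved from 2 genes called to 4 with upper-quartile scaling, 4 with library totals only, 4 with the replicate block and 5 with DESeq2, and to between 2 and 6 with 1 library left out. For the genes that the naming rule chose from the lists, all 400 alternative values kept their direction and side of the threshold, whereas genes named after their values were seen, such as Fbxo32 and Trim63, were not followed one by one. With a stricter filter, which tests fewer genes, 3 adipocyte genes, 1 myeloid gene and 6 genes of the myoblast list were called. Of the myoblast list, 7 genes were called with upper-quartile scaling, library totals only or the replicate block. With 1 library left out, 7 or 8 of that list were called. Where not stated, the cause was not tested. Depth does not limit the 4 members, each with at least 1387.5 counts per library. Cebpe and the liver metabolic genes had too few counts to be tested, and whether depth or absent expression lies behind this was not tested. Upper-quartile scaling shifted the median log2 fold change of all tested genes to -0.029.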

Other observations

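Counts of several liver transcripts were highest in 1 construct. Alb, which encodes serum albumin, had 131 counts in TNF-alpha replicate 2 and 0 in each of the other 5 libraries. In the same library Apoa1 had 17 counts against 0 to 4 in the others, Ttr had 10 against 0 to 2, Pck1 had 8 against 0 to 1 and Tat had 8 against 0 to 2. Cps1 had 10 counts there, but also 8 in vehicle replicate 2, and Cyp2e1 had 43.28 counts there against 28.07 to 37.39 in the others. These genes were chosen with the hepatocyte markers and liver list, and the source of the counts was not tested. Without TNF-alpha replicate 2 the log2 fold changes were -0.12 for Cebpa, 1.29 for Cebpb, 1.41 for Cebpd and 0.46 for Cebpg.

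Other transcription factor genes deviated in either direction in vehicle replicate 2, where Cebpd was high, and those named here were chosen after their values were seen. Junb lay 0.42 above the vehicle mean there on the log2 scale, higher than 99.5% of tested genes, and Egr2 lay 0.32 above it, higher than 98.9%. On the other side lay Atf3 at -0.36, with 1.6% of tested genes lower, Jun at -0.24, with 4.39% lower, and Klf4 at -0.20, with 6.02% lower. Fos at -0.03 and Fosl1 at -0.06 were near the mean. What sets this construct apart was not tested.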
